A study of Sorghum bicolor with 96 samples.

Results

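LHY (Sobic.007G047400), TOC1 (Sobic.004G216700) and GI (Sobic.003G040900) are the sorghum orthologs of 3 core genes of the plant circadian clock, taken by identifier from a counts table of 34129 genes. All 3 passed the filter on low counts in both experiments, among 18248 genes tested in the cold and 18648 in the heat. Transcript levels were measured by sequencing polyA RNA from leaves of the cereal sorghum (Sorghum bicolor) to ask how 1 h of cold or heat acts at different times of day. Times are zeitgeber times (ZT), in hours after lights on, and were 1, 6, 9 and 15. In the cold experiment, leaves of SC224 (labelled tolerant) and RTX430 (labelled sensitive) had 1 h at 10 °C. In the heat experiment, leaves of Macia (labelled tolerant) and RTX430 had 1 h at 42 °C. Every stressed group had an unstressed control group of the same line and time, and all plants grew at 30 °C in the day and at 20 °C in the night. ZT15 fell in the night, so by these temperatures the step to the stress began there from 20 °C and not from 30 °C. The treatment text gives ZT0 where the sample labels give ZT1, so the ZT1 stress may also have begun at the end of the night, from 20 °C. Where a response at ZT15 or ZT1 differed from that at other times, time of day, light and the size of that step cannot be told apart. Each of the 32 groups had 3 libraries, 96 in all, and nothing in the labels says whether these came from separate plants, so the p-values measure the spread between these libraries.

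The plant clock is a loop of regulators that repress one another in turn through the day. In Arabidopsis, LHY (LATE ELONGATED HYPOCOTYL) is a MYB-type transcription factor that accumulates around dawn and represses evening genes, TOC1 and GI among them. TOC1 (TIMING OF CAB EXPRESSION 1) is a pseudo-response regulator that accumulates around dusk and represses LHY. GI (GIGANTEA) is a large plant-specific protein of the afternoon that works with the blue-light receptor ZEITLUPE, which targets the TOC1 protein for degradation, and that promotes flowering under inductive day lengths.

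Library totals ranged from 1059841 to 11545393 counts (median 3642164.5). Levels are given as TMM-scaled CPM (counts relative to an effective library size of 1e+06), which correct for library size and composition but not for gene length, so levels are compared within a gene and not between genes. Groups said not to overlap, or to stand apart, are described for those libraries only. The share of all genes whose groups do not overlap was not taken. The line labels carry a limit. Between cold-experiment RTX430 and heat-experiment RTX430, 250 genes switched between a median above 3 CPM and one under 0.05 CPM, against 6 between cold SC224 and heat RTX430, so the line names are used below only as labels. Which of these labels is in error, SC224 or RTX430 of either experiment, cannot be told apart here. Every difference between SC224 and RTX430, every difference between Macia and RTX430, and the terms tolerant and sensitive carry this limit. Cold SC224 ZT1 control replicate 1 and heat RTX430 ZT15 control replicate 1 held 130 and 415 summed CPM of 59 genes otherwise found in cold RTX430, against at most 8.84 CPM in any other library of the other labels. They also held 194 and 300 CPM of 45 genes otherwise found in Macia. Their own labels' genes were reduced. Of 33 genes found in SC224 and heat-experiment RTX430, the SC224 library held 112 CPM, against 440 and 525 CPM in its fellow replicates. The RTX430 library held 152 CPM of them, against 523 and 719 CPM in its fellow replicates. Calls of stress, of lines and of times that rest on either library are given with and without it. Some tests that missed the threshold are given only with it. The correlations over all controls include both.

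In control leaves, LHY was high at ZT1 and lowest at ZT9 or ZT15, GI was lowest at ZT1 and highest at ZT9, and TOC1 was low at ZT6 and high at ZT9 and ZT15. The joint test of time of day was passed by all 3 genes in each line of each experiment. The same test was passed by 52.3% and 50.5% of all genes in cold-experiment SC224 and RTX430, and by 46.2% and 47.8% in heat-experiment Macia and RTX430. All of these calls used edgeR's quasi-likelihood test with Benjamini-Hochberg adjusted p under 0.05. Those in SC224 and heat-experiment RTX430 were kept without the library that carried other lines' genes, with adjusted p of at most 8.78e-07.

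LHY, the dawn regulator, had the widest range of the 3. At ZT1 the SC224 controls held 5076, 4140 and 4940 CPM, and the RTX430 controls of the same experiment 3791, 3305 and 5372 CPM. In the heat experiment the ZT1 controls held 4514, 2483 and 5150 CPM in Macia, and 3229, 2309 and 3320 CPM in RTX430. Every ZT1 control library thus held at least 2309 CPM, while no control library at ZT9 or ZT15 held more than 12.6 CPM.

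By ZT6 the LHY controls averaged 214 ± 50.7 CPM in SC224, 79.6 ± 9.70 CPM in cold-experiment RTX430, 140 ± 40.3 CPM in Macia and 193 ± 12.0 CPM in heat-experiment RTX430 (SD, n = 3 each). The highest mean stood above the lowest by 873-fold in SC224, 1720-fold in cold-experiment RTX430, 2080-fold in Macia and 1490-fold in heat-experiment RTX430. Without the library of each that carried other lines' genes, the folds were 841 in SC224 and 1250 in heat-experiment RTX430. The difference between ZT15 and ZT9 missed the threshold in 3 of these 4 sets, in a comparison that called 13.5% of all genes in SC224, 14.2% in cold-experiment RTX430, 8.8% in Macia and 10.2% in heat-experiment RTX430. The exception was heat-experiment RTX430, where ZT15 was lower than ZT9 (log2 change -1.91, SE 0.449, adjusted p = 0.00354 by edgeR's quasi-likelihood test). Without its ZT15 library that carried other lines' genes, it was -1.72 (adjusted p = 0.0256).

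GI, the afternoon gene, ran the opposite way over the first part of the day. Its ZT1 controls averaged 34.1 ± 8.86 CPM in SC224, 41.1 ± 18.4 CPM in cold-experiment RTX430, 27.5 ± 3.57 CPM in Macia and 18.2 ± 7.30 CPM in heat-experiment RTX430 (SD, n = 3 each). At ZT9 the means were 977 ± 158, 875 ± 110, 555 ± 142 and 837 ± 65.3 CPM in the same order of lines. The order of the times, from high to low, was ZT9, ZT6, ZT15 and ZT1 in every line, with the highest mean 20.2-fold to 46.1-fold above the lowest. Some neighbours in that order missed the threshold. ZT9 and ZT6 differed in SC224 (log2 change 1.06, adjusted p = 0.00374) and heat-experiment RTX430 (1.02, adjusted p = 0.036), but not in cold-experiment RTX430 (0.57, adjusted p = 0.2) and Macia (0.68, adjusted p = 0.215). ZT15 against ZT6 missed it in SC224 (-0.06, adjusted p = 0.911), where scaling by library totals turned the sign (0.67). GI was lower at ZT15 than at ZT6 in cold-experiment RTX430 (-1.05, adjusted p = 0.00212), Macia (-1.21, adjusted p = 0.00502) and heat-experiment RTX430 (-0.93, adjusted p = 0.0264). Library totals ended all 3 of these calls (adjusted p = 0.176, 0.367 and 0.622), and the lack of a filter on low counts also ended that in heat-experiment RTX430 (0.0611). Library totals likewise ended the call of ZT15 below ZT9 in SC224 (-0.81, adjusted p = 0.0823) and made ZT9 above ZT6 a call in Macia (1.18, adjusted p = 0.0254). Of all genes, 9.98% differed between ZT9 and ZT6 in SC224, 7.04% in cold-experiment RTX430, 6.92% in Macia and 8.94% in heat-experiment RTX430, and 24.2%, 23.8%, 23.6% and 25.9% between ZT15 and ZT6 in the same order. Without the 2 libraries that carried other lines' genes, each of these GI comparisons kept its side of the threshold.

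TOC1, the dusk regulator, had its highest means at ZT9 and ZT15. Not every rise over ZT1 was called by edgeR's quasi-likelihood test. In heat-experiment RTX430 it missed at ZT9 (log2 change 1.001, adjusted p = 0.15) and ZT15 (1.03, adjusted p = 0.136). In Macia it missed at ZT15 (1.005, adjusted p = 0.127). Library totals made both ZT15 rises calls (adjusted p = 0.00832 in RTX430 and 0.0042 in Macia). Without the library that carried other lines' genes, the RTX430 rises had adjusted p of 0.137 and 0.222. At ZT9 the TOC1 controls held 45.4, 33.6 and 60.2 CPM in SC224 and 71.1, 85.9 and 55.01 CPM in cold-experiment RTX430. In the heat experiment they held 58.3, 46.2 and 60.0 CPM in Macia and 60.3, 7.37 and 24.6 CPM in RTX430. The last set, at 30.8 ± 27.01 CPM (SD, n = 3), had the widest spread among the TOC1 controls at ZT9 or ZT15.

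The mean of TOC1 was lowest at ZT6 in every set, though the difference from ZT1 was not called in cold-experiment RTX430. Its ZT6 controls averaged 0.637 ± 0.294 CPM in SC224, 2.74 ± 1.92 CPM in cold-experiment RTX430 and 1.19 ± 0.705 CPM in Macia (SD, n = 3 each). In heat-experiment RTX430 the 3 control libraries held 0, 1 and 0 reads of TOC1, which is under the floor of 3 counts. TOC1 was lower at ZT6 than at ZT1 in SC224 (log2 change -4.47, adjusted p = 3.07e-08) and in Macia (-3.13, adjusted p = 0.00049), both by edgeR's quasi-likelihood test. The same test called it in heat-experiment RTX430 (-6.655, adjusted p = 7.3e-06), from the ZT6 counts under the floor. Without the library of each that carried other lines' genes, the change was -4.43 in SC224 (adjusted p = 1.87e-07) and -6.631 in heat-experiment RTX430 (adjusted p = 1.06e-05). In cold-experiment RTX430 the same change was -0.60 (adjusted p = 0.361). Between these times 26.9% of all genes were called in SC224, 24.3% in cold-experiment RTX430, 19.8% in Macia and 20.7% in heat-experiment RTX430. ZT15 against ZT9 missed the threshold in SC224, Macia and heat-experiment RTX430, and ZT15 was lower in cold-experiment RTX430 (log2 change -1.28, SE 0.357, adjusted p = 0.0118). That call was lost under library totals (-1.01, adjusted p = 0.112).

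**Figure D1:**
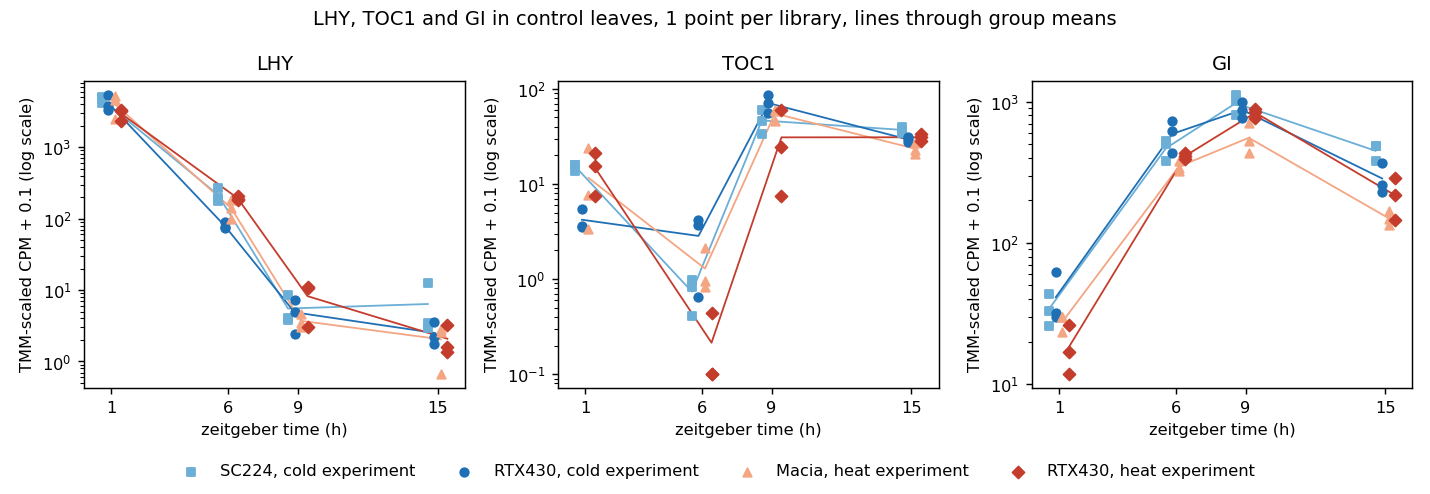
Levels of LHY, TOC1 and GI in control leaves against zeitgeber time in hours, as TMM-scaled CPM plus 0.1 on a log axis, with 1 point per library and lines through the group means of each line and experiment. The LHY mean is lower at each time up to ZT9 in all 4 sets. Of the 4 times, the GI mean is highest at ZT9 and the TOC1 mean lowest at ZT6, though not every difference between neighbouring times was called.

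Between the control leaves of the lines of an experiment, the calls were of TOC1, at ZT1 and ZT6 in the cold experiment. At ZT1, TOC1 held 15.9, 13.7 and 15.7 CPM in SC224 controls, against 3.46, 3.55 and 5.31 CPM in RTX430 controls, with no overlap (log2 difference 1.89, SE 0.417, adjusted p = 0.00236 by edgeR's quasi-likelihood test). Without the SC224 library that carried other lines' genes, the difference was 1.85 (adjusted p = 0.00634). At ZT6 the direction was the opposite. TOC1 then held 0.882, 0.716 and 0.311 CPM in SC224, against 3.57, 4.11 and 0.546 CPM in RTX430 (log2 difference -1.98, SE 0.595, adjusted p = 0.0281), and these groups overlapped. That call was lost under scaling by library totals (-2.09, adjusted p = 0.05) and without 4 single libraries, namely SC224 control replicates 2 and 3 and RTX430 control replicates 1 and 2 (adjusted p = 0.0944 to 0.212). Over all alternatives the ZT6 difference had adjusted p between 0.0013 and 0.212. Of all genes, 6.92%, 7.12%, 5.86% and 7.96% differed between the SC224 and RTX430 controls at ZT1, ZT6, ZT9 and ZT15. Of the 12 comparisons of Macia with RTX430 controls (3 genes at 4 times), 0 passed edgeR's quasi-likelihood test after adjustment, where 4.09%, 5.21%, 5.17% and 2.23% of all genes were called at ZT1, ZT6, ZT9 and ZT15. Of the same 12, 2 had an unadjusted p under 0.05, and no share of all genes was taken at that threshold. No other tool was run on the comparisons of lines.

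After 1 h of cold, GI was lower at ZT1 in both lines, TOC1 was lower at ZT1 in SC224 and at ZT9 in RTX430, and no LHY change passed the test (0 of 8 after adjustment, 3 with an unadjusted p under 0.05, and 1 by DESeq2). That makes 2 calls of 12 (3 genes at 4 times) in each line, every one a decrease. Among all genes tested, the cold response was called after adjustment for 11.1%, 2.84%, 2.71% and 1.1% in SC224 and for 6.59%, 3.2%, 2.13% and 1.0% in RTX430, at ZT1, ZT6, ZT9 and ZT15. No share of all genes was taken at an unadjusted p under 0.05. These are bulk leaves, in which fewer cells of a type and less RNA per cell cannot be told apart.

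GI fell at the time of day when it was already lowest. In RTX430 at ZT1 the cold libraries held 9.74, 5.04 and 5.98 CPM, against 29.5, 31.5 and 62.3 CPM in controls. The groups did not overlap, and GI was 6.08-fold lower (log2 change -2.60, SE 0.279, adjusted p = 2.77e-08 by edgeR's quasi-likelihood test). This call held in all 12 alternatives tried. In SC224 at ZT1 the cold libraries held 17.03, 19.3 and 14.2 CPM, against 33.04, 25.9 and 43.5 CPM in controls, and GI was 2.03-fold lower (log2 change -1.02, SE 0.265, adjusted p = 0.00871). Without the SC224 control library that carried other lines' genes it was -1.04 (adjusted p = 0.0192). The SC224 call was lost in 4 of 12 alternatives. These were library totals alone (-0.60, adjusted p = 0.244), a fit to only the libraries concerned (adjusted p = 0.157), and leaving out control replicate 3 (adjusted p = 0.076) or stress replicate 3 (adjusted p = 0.0535). Over all 12, adjusted p ran from 0.00306 to 0.244.

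At the later times no GI change in the cold passed. At ZT6 the cold libraries lay below the controls in both lines. They averaged 311 ± 12.0 CPM in cold SC224, against 467 ± 77.5 CPM in its controls (log2 change -0.59, adjusted p = 0.257). In RTX430 they averaged 374 ± 40.8 CPM in the cold, against 592 ± 148 CPM in controls (-0.66, adjusted p = 0.173). At ZT9 and ZT15 the GI changes lay between -0.27 and 0.43 on the log2 scale, with adjusted p of 0.723 to 0.957. The GI response itself differed between times in RTX430 (adjusted p = 6.43e-06 by the joint edgeR quasi-likelihood test, which 2.3% of genes passed). In SC224 it missed that test (adjusted p = 0.141, and 0.166 without the library that carried other lines' genes, with 5.97% of genes called).

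TOC1 showed the largest fold of any member in the cold. In SC224 at ZT1 the cold libraries held 0.587, 0.438 and 0.966 CPM, which are 1, 1 and 3 reads. These lie at or under the floor of 3 counts, so the size of the fold is poorly fixed. The controls held 15.9, 13.7 and 15.7 CPM, which are 36, 73 and 38 reads. TOC1 was 20.7-fold lower (log2 change -4.37, SE 0.578, adjusted p = 1.45e-06 by edgeR's quasi-likelihood test), with a 95% interval of 0.0214 to 0.109 for the ratio of cold to control. It held in all 12 alternatives, and without the control library that carried other lines' genes it was -4.34 (adjusted p = 8.91e-06). In RTX430 at ZT1 the cold libraries held 0, 1.37 and 2.19 CPM, against 3.46, 3.55 and 5.31 CPM in controls. The groups did not overlap, but the change of -1.46 missed the threshold (adjusted p = 0.0694). It passed with DESeq2 (0.0499, where 7.61% of genes were called) and without stress replicate 3 (-2.16, adjusted p = 0.0406), in 2 of 12 alternatives that ran from 0.0406 to 0.275.

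At ZT9, where TOC1 is near its daily high, the cold libraries were again lower. RTX430 held 23.4, 41.5 and 19.8 CPM in the cold, against 71.1, 85.9 and 55.01 CPM in controls, and TOC1 was 2.48-fold lower without overlap (log2 change -1.31, SE 0.359, adjusted p = 0.0416). This call was lost under several alternatives. Library totals gave adjusted p = 0.129, no filter on low counts 0.0687, a block for the replicate number 0.162, and a fit to only the libraries concerned 0.349. Leaving out control replicate 1 or 2 or stress replicate 1 or 4 gave 0.0853 to 0.34. Over all 12, adjusted p ran from 0.00156 to 0.349. In SC224 at ZT9 TOC1 held 17.6, 28.5 and 17.8 CPM in the cold, against 45.4, 33.6 and 60.2 CPM in controls, without overlap (-1.11, adjusted p = 0.101, and 0.0106 to 0.421 over 12 alternatives, of which DESeq2, with 3.36% of genes called, and library totals, with 2.54%, passed).

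The other TOC1 changes in the cold missed the threshold. In SC224 at ZT15 it held 71.3, 62.8 and 55.7 CPM in the cold, against 37.2, 39.3 and 34.2 CPM in controls, with no overlap (log2 change 0.78, adjusted p = 0.536). In RTX430 at ZT15 it averaged 37.7 ± 6.60 CPM in the cold, against 29.2 ± 1.94 CPM in controls (0.38, adjusted p = 1). At ZT6 in SC224 it averaged 1.88 ± 0.543 CPM in the cold, against 0.637 ± 0.294 CPM in controls, on 8 reads or fewer in any of those libraries (1.43, adjusted p = 0.271). In RTX430 at ZT6 it held 2.03, 2.57 and 5.65 CPM in the cold, against 3.57, 4.11 and 0.546 CPM in controls, and the groups overlapped (0.35, adjusted p = 0.794, with a sign that turned under library totals and without either control replicate 3 or stress replicate 3). The TOC1 response differed between times in SC224 (adjusted p = 1.09e-05 by the joint edgeR quasi-likelihood test, and 3.04e-05 without the library that carried other lines' genes) and missed that test in RTX430 (adjusted p = 0.0658). In RTX430 it passed without ZT6 control replicate 2 or 3, ZT1 stress replicate 3 or ZT9 stress replicate 3 (adjusted p = 0.0226 to 0.0481).

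At ZT6 the change of LHY in the cold missed the test in both lines, while the cold libraries held more LHY than their controls. In SC224 the ZT6 cold libraries held 530, 511 and 572 CPM, against 272, 192 and 179 CPM in controls (log2 change 1.33, SE 0.506, adjusted p = 0.182). In RTX430 they held 218, 214 and 230 CPM, against 72.7, 90.7 and 75.5 CPM in controls (1.47, SE 0.510, adjusted p = 0.126). All 6 cold libraries lay above the controls of their line. In a fit to only the libraries concerned, both differences passed (adjusted p = 0.0335 in SC224, with 1.75% of genes called, and 0.00624 in RTX430, with 3.39%). DESeq2 called that in RTX430 (adjusted p = 0.0216, with 4.07% of genes called). The other alternatives missed the threshold, up to 0.52 in SC224 and 0.274 in RTX430.

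At ZT1, close to its peak, LHY averaged 4207 ± 551 CPM in cold SC224, against 4719 ± 506 CPM in its controls (log2 change -0.17, adjusted p = 0.891). In RTX430 it averaged 3044 ± 105 CPM in the cold, against 4156 ± 1080 CPM in controls (-0.45, adjusted p = 0.762). The 95% intervals of the ratio of cold to control were 0.444 to 1.79 in SC224 and 0.364 to 1.47 in RTX430. Under scaling by library totals the SC224 value turned positive (0.25), and without the control library that carried other lines' genes it was -0.11 (adjusted p = 0.954). In SC224 at ZT15, where LHY was near its daily low, the cold libraries held 10, 1 and 0 reads, against 74, 46 and 9 reads in controls (log2 change -2.11, adjusted p = 0.168). Without stress replicate 1, which had the 10 reads, it was -4.67 (adjusted p = 0.0133, within 0.0133 to 0.85 over the 12 alternatives). The LHY response differed between times in SC224 (adjusted p = 0.0267 by the joint edgeR quasi-likelihood test, and 0.033 without the library that carried other lines' genes). It no longer did without SC224 ZT15 control replicate 1 (0.142), ZT15 stress replicate 2 (0.0972) or ZT15 stress replicate 3 (0.0688), or under library totals (0.0628).

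**Figure D2:**
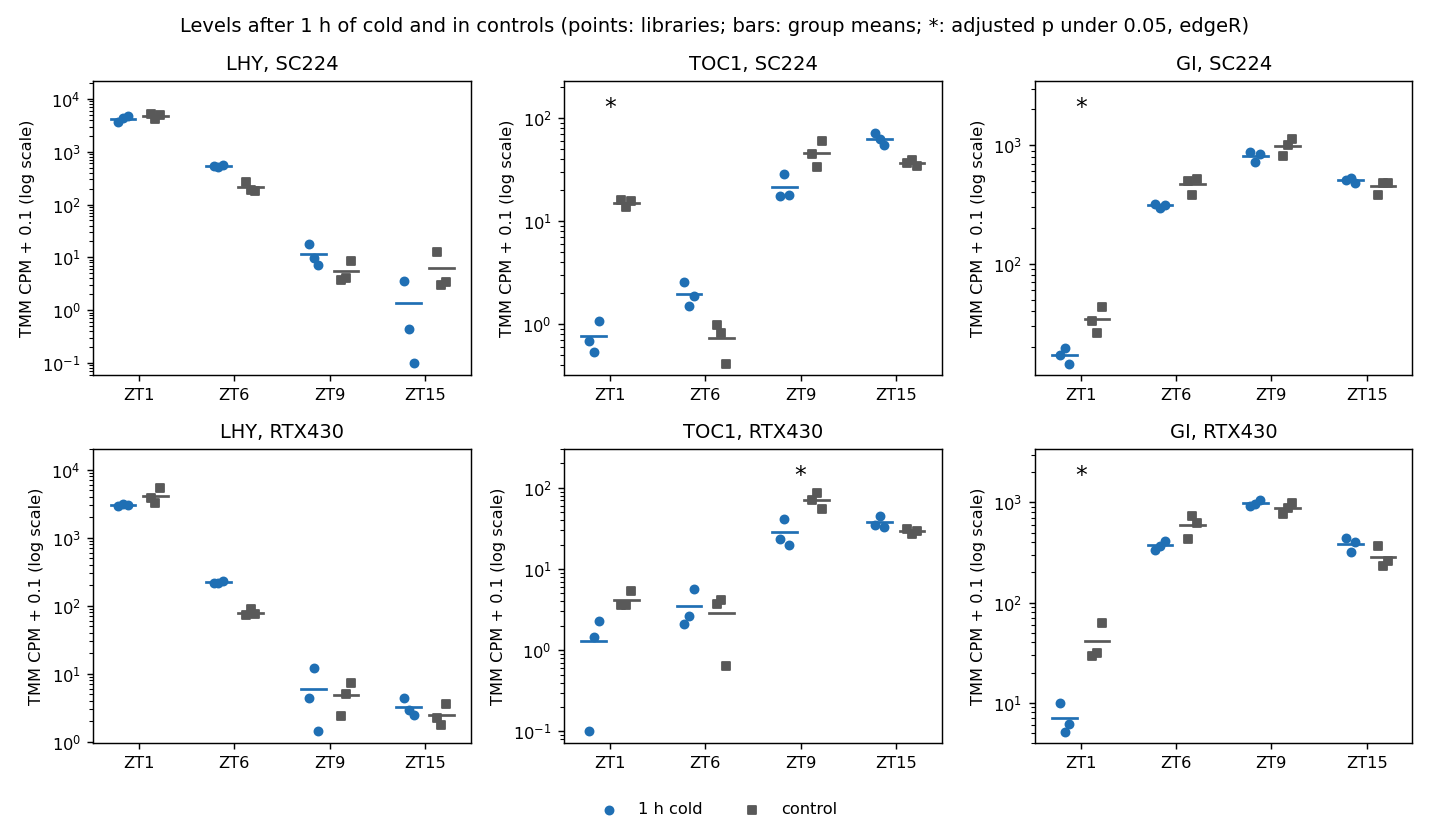
TMM-scaled CPM plus 0.1 on a log axis for LHY, TOC1 and GI after 1 h of cold and in controls at each ZT, SC224 in the upper row and RTX430 in the lower, with 1 point per library and bars at group means. Stars mark adjusted p under 0.05, at ZT1 for GI in both lines and TOC1 in SC224 and at ZT9 for TOC1 in RTX430.

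After 1 h of heat, GI was higher at ZT1 and ZT15 in both lines, and LHY was lower at ZT1 in both lines. TOC1 was lower in Macia at ZT1 and ZT9, and LHY in RTX430 at ZT6. This gives 5 calls of 12 in Macia and 4 of 12 in RTX430. The TOC1 and LHY responses called in a single line were not shown to differ between the lines. The heat response was called for 37.2%, 5.17%, 12.1% and 19.5% of all genes in Macia and for 35.6%, 13.3%, 4.07% and 35.4% in RTX430, at ZT1, ZT6, ZT9 and ZT15. Heat libraries at ZT1 had mean TMM factors of 0.513 in Macia and 0.533 in RTX430, against 0.855 and 0.930 in the controls of the same lines, and the part of this shift in the changes at ZT1 was not tested beyond the scalings given.

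GI at ZT1 made the largest change among the members. In RTX430 the heat libraries held 533, 398 and 657 CPM, against 11.6, 16.8 and 26.04 CPM in controls. GI was 28.8-fold higher (log2 change 4.85, SE 0.372, adjusted p = 1.53e-12 by edgeR's quasi-likelihood test). The heat mean of 529 CPM lay between the control means of ZT6 and ZT9. Heat replicate 2 is labelled ZT1 by its title and ZT2 elsewhere, and without it the change was 5.01 (adjusted p = 2.79e-12).

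In Macia at ZT1 the heat libraries held 140, 181 and 219 CPM of GI, against 23.4, 29.5 and 29.6 CPM in controls. GI was 6.53-fold higher there (log2 change 2.71, SE 0.336, adjusted p = 4.54e-08), and its heat mean of 180 CPM lay between the control means of ZT15 and ZT6. Both ZT1 calls held in all 12 alternatives. Scaling by library totals moved the median of all genes by -0.74 in Macia and -0.80 in RTX430 on the log2 scale at ZT1. Relative to the median of all genes under that scaling, GI was higher by 2.88 in Macia and 4.95 in RTX430.

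The GI response at ZT1 was smaller in Macia than in RTX430. The difference of the log2 changes was -2.14 (SE 0.457, adjusted p = 0.0129 by edgeR's quasi-likelihood test), in a comparison that called 0.654% of all genes at ZT1 and 0.0%, 0.00536% and 0.0858% at ZT6, ZT9 and ZT15. It missed the threshold under library totals (-2.07, adjusted p = 0.0592) and without any of 4 libraries. These were Macia control replicate 3 (0.0501), Macia stress replicate 1 (0.0585), RTX430 control replicate 1 (0.0816) and RTX430 stress replicate 3 (0.0757). Over all alternatives, adjusted p ran from 0.00504 to 0.0816 and the difference from -2.49 to -1.89.

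GI was also higher after heat at ZT15, when it was below its daily high. In RTX430 the heat libraries held 904, 551 and 986 CPM, against 287, 218 and 146 CPM in controls, and GI was 3.75-fold higher (log2 change 1.91, SE 0.323, adjusted p = 1.78e-05). This call held in all 12 alternatives. Without the control library that carried other lines' genes it was 2.17 (adjusted p = 4.63e-05). In Macia the ZT15 heat libraries held 303, 180 and 579 CPM, against 133, 147 and 168 CPM in controls (log2 change 1.24, SE 0.318, adjusted p = 0.00433). The call rests on heat replicate 3. Without it the change was 0.68 (adjusted p = 0.137), and a fit to only the libraries concerned also missed the threshold (adjusted p = 0.112, within 0.000177 to 0.137 over the 12 alternatives).

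At ZT6 and ZT9 no change of GI with heat passed. At ZT6 it averaged 404 ± 73.5 CPM in heated Macia, against 347 ± 31.7 CPM in its controls (log2 change 0.22, adjusted p = 0.783). In RTX430 at ZT6 it averaged 483 ± 103 CPM after heat, against 414 ± 21.95 CPM in controls (0.22, adjusted p = 0.699). At ZT9, its daily high, the changes were 0.37 in Macia (adjusted p = 0.498) and 0.25 in RTX430 (adjusted p = 0.79), with overlapping groups. The GI response to heat differed between times in Macia (adjusted p = 0.000449) and in RTX430 (adjusted p = 1.89e-08), both by the joint edgeR quasi-likelihood test, which 10.7% and 11.2% of genes passed. Without the control library that carried other lines' genes, the RTX430 value was 2.23e-08.

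LHY fell with heat at its peak. In Macia at ZT1 the heat libraries held 1399, 1518 and 1550 CPM, against 4514, 2483 and 5150 CPM in controls, and LHY was 2.72-fold lower (log2 change -1.44, SE 0.380, adjusted p = 0.00271 by edgeR's quasi-likelihood test). In RTX430 at ZT1 they held 1335, 1080 and 1046 CPM, against 3229, 2309 and 3320 CPM in controls, and LHY was 2.56-fold lower (-1.36, SE 0.379, adjusted p = 0.00482). The groups did not overlap in either line, and both calls held in all 12 alternatives. Without the RTX430 heat library with the ZT2 label, the RTX430 change was -1.32 (adjusted p = 0.0204).

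At ZT6 LHY held 61.7, 104 and 85.4 CPM in heated RTX430, against 182, 206 and 190 CPM in its controls, and was 2.31-fold lower (log2 change -1.21, SE 0.381, adjusted p = 0.0303). That call was lost under library totals (0.0559), with no filter on low counts (0.0593) and without any one of 5 of the 6 libraries, all but stress replicate 2 (adjusted p = 0.0668 to 0.197, against 0.00321 at the lowest over the 12 alternatives). In Macia at ZT6 LHY averaged 127 ± 44.8 CPM after heat, against 140 ± 40.3 CPM in controls (-0.15, adjusted p = 0.902). The LHY response at ZT6 was not shown to differ between Macia and RTX430 (difference 1.06, SE 0.532, adjusted p = 0.594).

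Near its daily minimum LHY did not pass at ZT9 or ZT15 in either line, with log2 changes of -0.33 to 0.76 on between 2 and 47 reads per library. The signs of the RTX430 values, 0.01 at ZT9 and 0.13 at ZT15, turned under library totals (-0.13 and -0.31), and that at ZT15 also without the control library that carried other lines' genes (-0.09). The response of LHY differed between times in Macia with little margin (adjusted p = 0.048). Leaving out any of 14 single libraries put it above the threshold, up to 0.143 without ZT1 control replicate 3 (adjusted p = 0.0504 to 0.143 over those 14). The lack of a filter on low counts (0.0667) and a block for the replicate number (0.0554) did so too. The 14 were ZT1 control 1 and 3 and stress 1, 2 and 3, ZT6 control 1 and 3 and stress 2, ZT9 control 2 and 3 and stress 3, and ZT15 control 1 and stress 2 and 3. In RTX430 it missed the test (adjusted p = 0.124, and 0.208 without the control library that carried other lines' genes), though library totals gave 0.04.

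TOC1 was lower after heat in Macia at ZT1 and ZT9. In Macia at ZT1 the heat libraries held 3.02, 2.00 and 1.42 CPM, against 7.60, 3.25 and 23.6 CPM in controls (log2 change -2.52, SE 0.698, adjusted p = 0.00395 by edgeR's quasi-likelihood test). Control replicate 3, at 23.6 CPM, decided this call, since without it the change was -1.42 (adjusted p = 0.124, against 0.000335 at the lowest over the 12 alternatives). In Macia at ZT9 they held 19.3, 12.1 and 18.5 CPM, against 58.3, 46.2 and 60.0 CPM in controls, and TOC1 was 3.25-fold lower without overlap (-1.70, SE 0.533, adjusted p = 0.0302). Leaving out any 1 of the 6 libraries put that adjusted p between 0.0513 and 0.0956.

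In RTX430 no change of TOC1 after heat was called by edgeR's quasi-likelihood test, while DESeq2 called those at ZT1 and ZT9. At ZT1 the heat libraries held 4.45, 1.49 and 7.77 CPM, against 15.5, 7.40 and 21.2 CPM in controls (log2 change -1.503, adjusted p = 0.0507). That test was passed in 7 of 12 alternatives (adjusted p = 0.00296 to 0.197), among them RLE factors, DESeq2, library totals and a fit to only the libraries concerned (37.5%, 36.9%, 50.7% and 42.3% of genes called), and without control replicate 2 (0.0245) or stress replicate 3 (0.0326). Without the heat library with the ZT2 label it was -1.28 (adjusted p = 0.134). At ZT9 they held 7.83, 6.07 and 12.6 CPM, against 60.3, 7.37 and 24.6 CPM in controls (-1.73, adjusted p = 0.07), overlapping. DESeq2 called it (-1.78, adjusted p = 0.0285, with 5.67% of genes called). Without control replicate 2, at 7.37 CPM, it was -2.17 (adjusted p = 0.02, within 0.02 to 0.485 over the 12 alternatives). At ZT15 TOC1 held 13.7, 12.3 and 16.8 CPM in heat, against 33.2, 31.3 and 28.03 CPM in controls, with no overlap (-1.11, adjusted p = 0.0983), and -1.04 (adjusted p = 0.181) without the control library that carried other lines' genes. It passed in a fit to only the libraries concerned (-1.03, adjusted p = 0.011, with 33.1% of genes called) and under library totals (-1.47, adjusted p = 0.0303, with 40.5%), and ran from 0.011 to 0.239 over the 12 alternatives.

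In Macia at ZT15 the groups stood apart as well, with 13.9, 12.0 and 8.76 CPM of TOC1 after heat, against 20.5, 26.8 and 22.9 CPM in controls (log2 change -1.02, adjusted p = 0.186). At the ZT6 trough the RTX430 heat libraries held 8, 0 and 1 reads, against 0, 1 and 0 reads in controls, and no fold is given. In Macia at ZT6 TOC1 averaged 2.14 ± 0.859 CPM after heat, against 1.19 ± 0.705 CPM in controls (0.66, adjusted p = 0.715). The TOC1 response to heat was not shown to differ between times (adjusted p = 0.14 in both lines, and 0.163 in RTX430 without the control library that carried other lines' genes), though in Macia library totals gave 0.0495. Nor was it shown to differ between Macia and RTX430 by edgeR's quasi-likelihood test. The difference of the log2 changes was -1.02 at ZT1 (SE 0.941, adjusted p = 0.73) and 0.03 at ZT9 (SE 0.753).

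**Figure D3:**
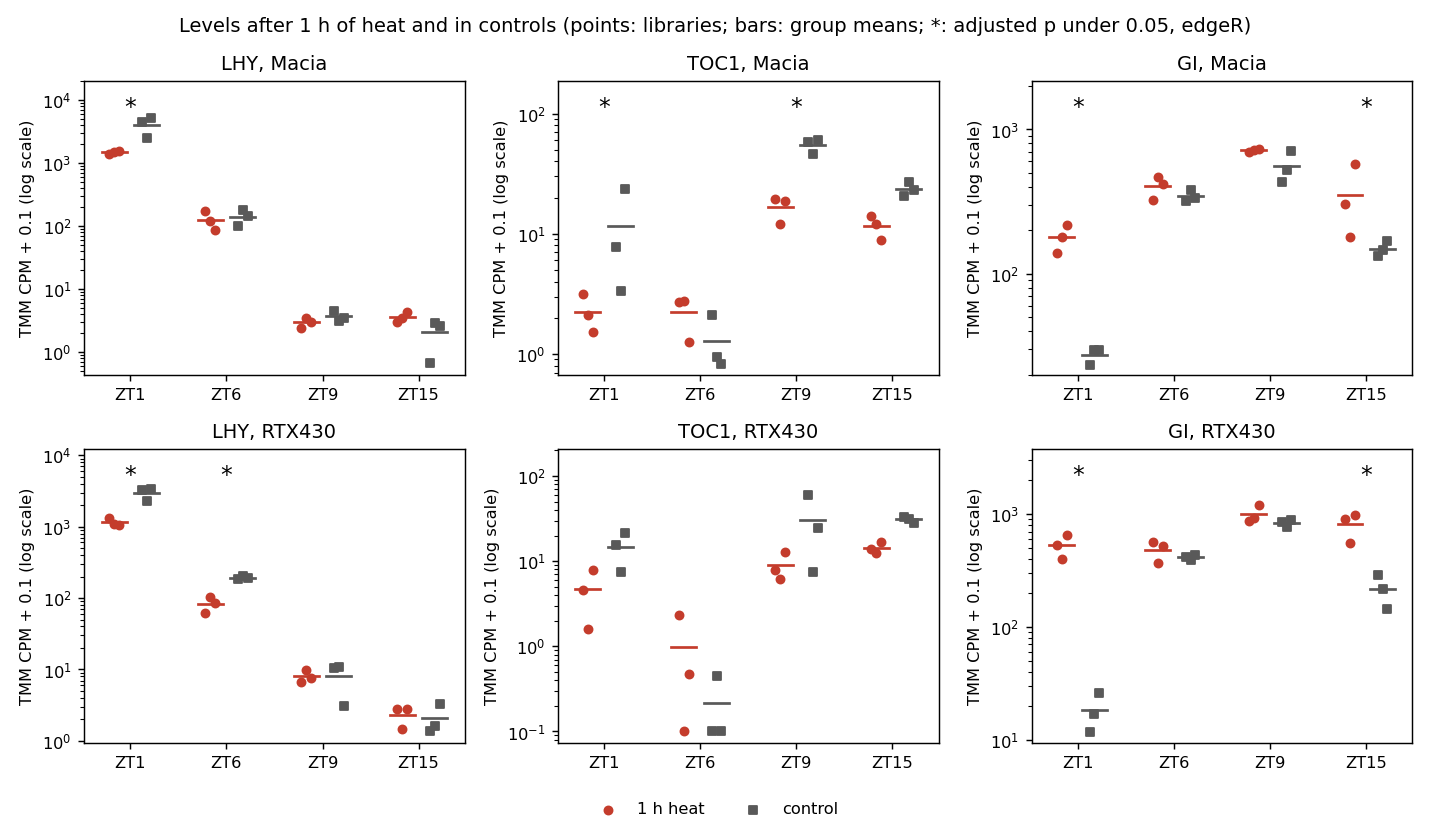
TMM-scaled CPM plus 0.1 on a log axis for LHY, TOC1 and GI after 1 h of heat and in controls at each ZT, Macia in the upper row and RTX430 in the lower, with 1 point per library and bars at group means. Stars mark adjusted p under 0.05. GI at ZT1 stands apart most, at 140 to 219 CPM in heated Macia against 23.4 to 29.6 CPM in its controls, and at 398 to 657 CPM in heated RTX430 against 11.6 to 26.04 CPM in its controls.

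The differences between lines in the cold response were large in places but not called. At ZT1 the cold change of TOC1 was lower in SC224 than in RTX430 by -2.91 on the log2 scale (SE 0.815, adjusted p = 0.267 by edgeR's quasi-likelihood test), and that of GI was higher by 1.59 (SE 0.378, adjusted p = 0.154). Without the SC224 control library that carried other lines' genes, these differences were -2.88 (adjusted p = 0.357) and 1.57 (adjusted p = 0.234). At ZT15 the LHY difference was -2.46 (SE 0.921, adjusted p = 1), on the few reads given above. That comparison called 0.011%, 0.0%, 0.00548% and 0.0% of all genes at ZT1, ZT6, ZT9 and ZT15, so few genes of any kind passed it. Of the 12 comparisons, 0 passed and 3 had an unadjusted p under 0.05, and no share of all genes was taken at the latter threshold.

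**Figure D4:**
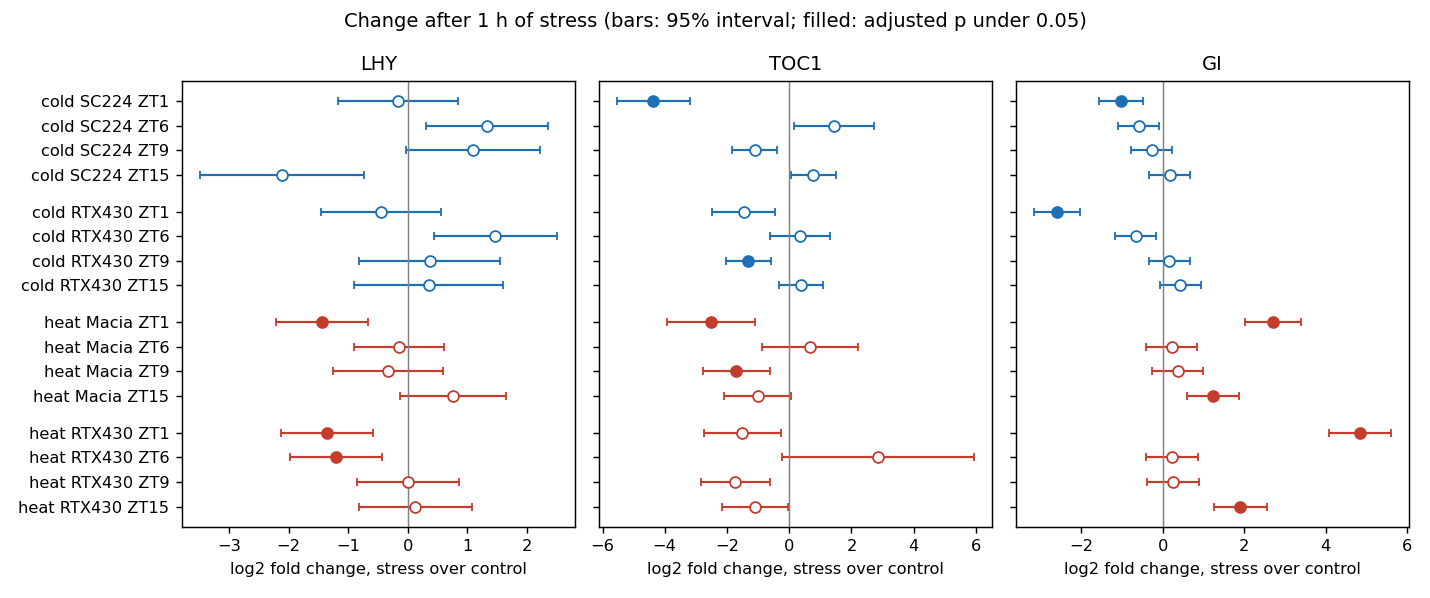
The log2 fold change of stress over control for LHY, TOC1 and GI in each line and at each ZT, with 95% intervals, and filled points where adjusted p is under 0.05. GI at ZT1 lies at -1.02 and -2.60 after cold and at 2.71 and 4.85 after heat, in SC224 and RTX430 and in Macia and RTX430.

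The ratio of LHY to GI counts within a library does not depend on how libraries are scaled to one another. It is given as a log2 ratio with 0.5 added to each count, as a description without a test. In controls at ZT1 it had means of 7.13 in SC224, 6.71 in cold-experiment RTX430, 7.14 in Macia and 7.38 in heat-experiment RTX430. At ZT9 and ZT15 the control means lay between -7.58 and -6.44, so LHY counts passed from well above to well below GI counts in the course of the day.

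After cold the LHY to GI ratio was higher early in the day. At ZT1 it averaged 7.95 ± 0.36 in cold SC224, against 7.13 ± 0.27 in its controls, and 8.81 ± 0.55 in cold RTX430, against 6.71 ± 0.29 in its controls (SD, n = 3 each). At ZT6 it averaged 0.79 ± 0.07 in cold SC224, against -1.14 ± 0.36 in its controls, and -0.75 ± 0.12 in cold RTX430, against -2.87 ± 0.26 in its controls. None of these groups overlapped. At ZT9 it averaged -6.24 in cold SC224, against -7.56 in its controls, also without overlap, while the RTX430 groups overlapped at ZT9 and both lines at ZT15.

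After heat the LHY to GI ratio was lower at ZT1 in both lines. It averaged 3.07 ± 0.25 in heated Macia, against 7.14 ± 0.65 in its controls, and 1.15 ± 0.42 in heated RTX430, against 7.38 ± 0.61 in its controls. Heated RTX430 was below its controls at ZT6 too, at -2.54 ± 0.69 against -1.10 ± 0.15, and at ZT15, at -8.45 ± 0.11 against -6.75 ± 1.14. Without the control libraries that carried other lines' genes, the control means were -6.28 in heat-experiment RTX430 at ZT15 and 7.07 in SC224 at ZT1. In Macia the groups overlapped at ZT6, ZT9 and ZT15.

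**Figure D5:**
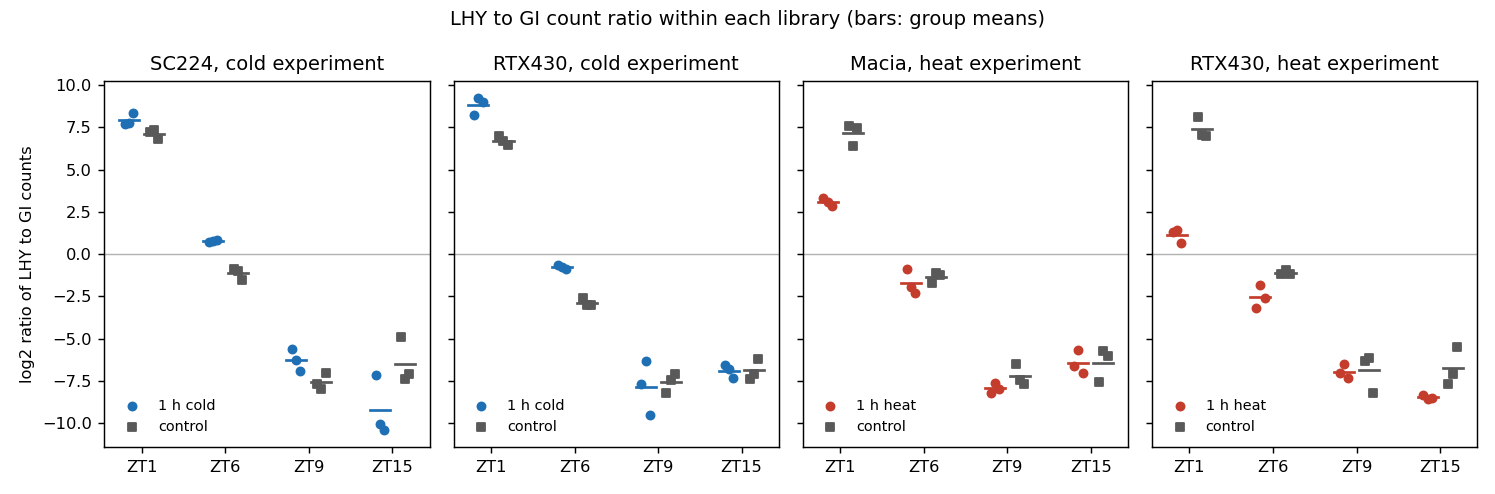
The log2 ratio of LHY to GI counts in each library (0.5 added to each count) by ZT, after stress and in controls, for the 4 combinations of line and experiment, with bars at group means. At ZT1 the ratio is above the controls after cold and below them after heat in every line.

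The ratio of TOC1 to GI counts, formed the same way, compares the evening gene with the afternoon gene. At ZT1 it averaged -4.29 ± 0.61 in cold SC224, against -1.14 ± 0.28 in its controls, without overlap, whereas in RTX430 the groups overlapped (-2.86 ± 2.18 in the cold, against -3.22 ± 0.25 in controls). At ZT6 it averaged -7.31 ± 0.37 in cold SC224, against -9.31 ± 0.71 in its controls, and at ZT15 -3.00 ± 0.14 in cold SC224, against -3.59 ± 0.23 in its controls, both higher without overlap. In RTX430 at ZT9 it averaged -5.18 ± 0.60 in the cold, against -3.64 ± 0.45 in controls, lower without overlap. The other cold groups overlapped. After heat at ZT1 it averaged -6.25 ± 0.87 in Macia, against -1.69 ± 1.40 in its controls, and -6.90 ± 0.55 in RTX430, against -0.34 ± 0.78 in its controls. At ZT15 the heated libraries again lay below their controls, at -4.78 ± 1.11 against -2.67 ± 0.22 in Macia and at -5.79 ± 0.29 against -2.76 ± 0.37 in RTX430. At ZT9 it was lower without overlap in Macia, at -5.44 ± 0.37 against -3.31 ± 0.38, and the other heat groups overlapped. Without the libraries that carried other lines' genes, the control means were -1.18 in SC224 at ZT1 and -2.59 in heat-experiment RTX430 at ZT15.

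Over the 48 control libraries, log2(TMM CPM + 1) of LHY and GI had a Pearson r of -0.743, LHY and TOC1 of -0.54, and TOC1 and GI of 0.132. These points share their time of day in groups, so the values describe the daily pattern and carry no p. Of 17561 genes tested in both experiments, those most like LHY over the same libraries were Sobic.003G354900 (r = 0.988), Sobic.004G344600 (0.984) and Sobic.002G295100 (0.976). Most like GI were Sobic.002G195700 (0.971), Sobic.006G279700 (0.962) and Sobic.004G262700 (0.96). Most like TOC1 were Sobic.006G265400 (0.866), Sobic.007G075200 (0.849) and Sobic.010G143400 (0.841), so the closest match to TOC1 was looser than the third match of either of the other 2.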

How the data were processed

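The authors deposited raw counts per gene from single-end polyA RNA sequencing of 75 nt reads. HISAT2 and DESeq2 are named without versions in the submitters' processing notes; the genome build, the counter, strand use and how multi-mapping reads were handled are not given in the sources used here, so genes sharing reads with a near-identical copy are uncertain to that extent. Groups came from the labels. The treatment text gives ZT0 where the sample labels give ZT1, which was used, and cold RTX430 has stress replicates 1, 3 and 4 at ZT9 and at ZT15. Each experiment was fitted on its own with edgeR 4.0.16 in R 4.3.3, as means of 16 groups over 48 libraries, after filterByExpr (minimum count 10, minimum total 15), with TMM scaling and the two-sided quasi-likelihood F-test, Benjamini-Hochberg adjusted over all genes tested; under 0.05 was called. At least 99.55% of each library's counts lay in tested genes, and 0 of 96 replicate pairs were identical. Depth, at 1059841 to 11545393 counts, limits TOC1 most; intervals and the floor of 3 counts cover counting error or the model's spread, not PCR copies. The fitting code was tested on simulated data. Alternatives were RLE factors, library totals alone, no filter, DESeq2 1.42.0 (stress responses), only the libraries concerned, a replicate block, and leaving out each library. The 3 members and these choices were made with earlier results of these data known. Named genes are the 3 members and, for each, the 3 with the highest Pearson r over controls. Other clock genes, leaf markers, coordinates and sequences were not used here, since the reference used does not pair the table's identifiers with names.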

Additional observations from a re-analysis of the deposited data

Results flagged for a closer look

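The joint test over the 4 times found responses that differed between times of day. In the cold these were GI in RTX430 (adjusted p = 6.43e-06), TOC1 in SC224 (adjusted p = 1.09e-05) and LHY in SC224 (adjusted p = 0.0267), by edgeR's quasi-likelihood test. In the heat they were GI in RTX430 (adjusted p = 1.89e-08), GI in Macia (adjusted p = 0.000449) and LHY in Macia (adjusted p = 0.048). The joint test was passed by 2.3% of genes in cold RTX430, 5.97% in cold SC224, 11.2% in heated RTX430 and 10.7% in heated Macia. The LHY calls were lost without any of 3 single libraries in SC224 and any of 14 in Macia. Between lines, the GI heat response at ZT1 was smaller in Macia than in RTX430, with a difference of -2.14 on the log2 scale (SE 0.457, adjusted p = 0.0129). That comparison called 0.654% of all genes. The GI difference missed the same test under library totals (adjusted p = 0.0592) and without any of several single libraries, and it carries the limit on the line labels.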

How the results depend on the processing

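Of the 13 stress responses called, 7 held in every alternative: GI at ZT1 in cold RTX430 and in heat in both lines, GI at ZT15 in heated RTX430, TOC1 at ZT1 in cold SC224, and LHY at ZT1 in heat in both lines. The count of cold calls in RTX430 was 2, against 4 with DESeq2, 1 with library totals, 1 with no filter, 1 with a replicate block and 1 to 3 with a library left out. In SC224 it was 2, against 3 with DESeq2 and 1 to 3 with a library left out. With library totals or only the libraries concerned it stayed at 2, but GI at ZT1 was lost and another change gained. The cause was not tested. The share of all genes called moved between settings too, and its part in these counts was not tested. In cold RTX430 at ZT9 it was 2.13%, against 2.52% with DESeq2 and 1.5% with library totals. No filter gave 1.19% there and the replicate block 1.45%. In SC224 at ZT1 it fell from 11.1% to 2.45% with only the libraries concerned but rose with library totals. Heat calls, 5 in Macia and 4 in RTX430, came to 4 to 5 and 3 to 5 with a library left out, and to 4 to 5 and 3 to 6 over the other settings (6 in RTX430 with DESeq2 and with only the libraries concerned). The share of all genes moved here as well. In heated RTX430 at ZT1 it was 35.6%, and ran from 22.5% with no filter to 50.7% with library totals. No share of all genes was taken with a library left out. Differences between lines in controls numbered 2 in the cold experiment (1 with library totals, 1 to 3 with a library left out) and 0 in the heat (0 to 1). The 1 line difference in the heat response became 0 with library totals and 0 to 1 with a library left out. Responses differing between times numbered 1 in cold RTX430 (1 to 2 with a library left out), 2 in cold SC224 (1 with library totals, 1 to 2), 2 in heated Macia (3 with library totals, 1 with no filter, 1 with the replicate block, 1 to 2) and 1 in heated RTX430 (2 with library totals).

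Signs turned only in values that missed the threshold. Library totals gave 0.67 for GI in SC224 controls (ZT15 minus ZT6), 0.25 for LHY in cold SC224 at ZT1, -0.31 and -0.13 for LHY in heated RTX430 at ZT15 and ZT9, and -6.482e-05 for TOC1 in cold RTX430 at ZT6. RLE factors gave -0.01967 for LHY in heated RTX430 at ZT9. With a library left out, LHY ran from -0.92 to 0.84 in cold RTX430 at ZT9, from -0.39 to 0.10 in heated Macia at ZT6, from -0.08759 to 0.67 in heated RTX430 at ZT15 and from -0.46 to 0.35 there at ZT9, and TOC1 from -0.18 to 0.81 in cold RTX430 at ZT6.

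Whether shared replicate numbers pair the libraries was not settled, since no level of correlation without pairing was taken for comparison. Of 46 correlations of deviations from the group mean, 15 were over 0.1 (range -0.491 to 0.608). With the number as a replicate block, TOC1 in cold RTX430 at ZT9 had adjusted p = 0.162, the LHY heat response over times in Macia 0.0554, and TOC1 in heated RTX430 at ZT1 0.0365. No other member call changed. Library depth limits TOC1 at its ZT6 trough, where libraries held from 0 to 18 reads.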
